A study of Homo sapiens with 77 samples.

Results

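The chromatin-focused CRISPR library of this study carried 64 guides (single guide RNAs, sgRNAs) against 16 genes of ADP-ribose biology, 4 for each gene. Members were all guides whose target symbol began with PARP, ADPRH, TNKS or MACROD, or was PARG. They were 64 of 2306 guides and 16 of 564 targeted genes, and no guide of the library was labelled with a TNKS or MACROD symbol. The 16 targets were PARP1, PARP2, PARP3, PARP4, PARP6, PARP8, PARP9, PARP10, PARP11, PARP12, PARP14, PARP15, PARP16, PARG, ADPRH and ADPRHL2. The guides are known here by the numbers given in the deposited table, such as s_1335.

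ADP-ribosylation is the transfer of ADP-ribose from NAD+ onto proteins or nucleic acids. Enzymes of the PARP family add it, either as single units or, for PARP1 and PARP2, as long chains that gather repair factors at broken DNA. Hydrolases such as PARG, ADPRH and ADPRHL2 remove it. Several mono-ADP-ribosyltransferases of the family, among them PARP9, PARP10, PARP12 and PARP14, are known as interferon-stimulated genes, and PARP14 is known in B cells as a partner of STAT6 in interleukin 4 signalling.

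The screen was run in 2 lines, the diffuse large B cell lymphoma line KARPAS422, which has mutant EZH2, and K562, a chronic myeloid leukaemia line with wild-type EZH2. In each line, untreated cells were sampled on day 0 and on day 14, with 1 library for each line and day. RNA-seq of 2 libraries for each condition was used as a further readout of the 16 genes. In 1 experiment KARPAS422, DB, Farage and SUDHL5 lymphoma cells received DMSO or MI-503, an inhibitor of the MEN1-MLL interaction. In the other, KARPAS422 and SuDHL10 cells were control cells or received the EZH2 inhibitor EPZ-6438, the MEN1 inhibitor VTP50469, or both drugs. KARPAS422, DB and SuDHL10 carry mutant EZH2, whereas Farage and SUDHL5 are wild type. The sample labels give no dose or time. By the study's own description MI-503 was given for days, and in the drug combination experiment KARPAS422 and SuDHL10 received the same doses but KARPAS422 was exposed for longer. No source used here states whether the 2 libraries of a condition were grown apart. The p-values thus speak of the spread between these libraries, which may be technical.

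In KARPAS422 the screen libraries had totals of 20640972 (day 0) and 19025742 (day 14) guide counts, and in K562 of 25031212 and 18275683. A guide score is the log2 of its day 14 over its day 0 abundance, set so that the median of the 48 control guides with at least 30 counts on day 0 is 0. The SD of the control guides was 0.638 in KARPAS422 and 1.30 in K562. With 1 library for each day there was no replicate error and no test, and intervals given for single guides cover counting error only. Of a list of genes that nearly all dividing cells need, 22 were in the library. Their median score was −3.59 in KARPAS422, with 22 of 22 below −1, and −0.50 in K562, with 2 of 22 below −1. Scores of the 2 lines are therefore on ranges that were not alike. Whether guides cut as efficiently in K562, or whether its day 14 cells were sampled as labelled, was not tested, and each K562 score and each difference between lines carries this limit. RNA-seq totals ranged from 13034958 to 54883332 counts over the 16 libraries with MI-503 or DMSO and from 8956156 to 31573027 over the 16 of the drug combination. The second KARPAS422 library with both drugs stood apart, with a median count of 99 per gene against 9 to 30 in the other 7 KARPAS422 libraries of that experiment.

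The median score of the 16 targets in KARPAS422 was −0.70, against −0.69 over all 564 genes, and 16 of 16 were below 0, as were 551 of 564. PARP6 at −1.37, PARG at −1.23 and PARP15 at −1.03 were below −1, which is 3 of 16, whereas 32.6% of all genes were. Among single guides 17 of 64 were below −1, against 36.9% of all targeting guides, and 10 of 64 were below the lowest 5% of control guides, against 27.1%. The lowest score of a member guide was −2.47, whereas the lowest of all targeting guides was −10.04. Centred on all guides instead of on control guides, 0 of 16 targets and 110 of 564 genes were below −1, the targets' median was −0.015 and 8 of 16 were above 0, so the direction of those 8 scores hung on the centring.

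In K562 the targets were near the control guides, with 1 exception. Their median score was −0.21, against −0.23 over all genes, and 12 of 16 were below 0. PARP6, at −3.19, was the only target below −1, which is 1 of 16 against 4.08% of all genes, and it was the second lowest of the 564. The other 15 targets lay between −0.48 and 0.28. Among single guides 5 of 64 were below −1, against 11.9% of all targeting guides, and 6 of 64 were below the lowest 5% of control guides, against 14.3%.

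The enzymes of DNA damage or poly-ADP-ribosylation were PARP1, PARP2 and PARP3. PARP1, the main sensor of DNA strand breaks, scored −0.62 in KARPAS422 and −0.48 in K562. Its 4 guides did not agree within a line, since s_1298 went from 14070 to 25933 counts in KARPAS422, a score of 0.23, while the other 3 scored −0.77 to −0.59. In K562 the order was another, with s_1296 lowest at −1.14 and s_1297 highest at 0.15. PARP2, which shares the role of PARP1 at breaks, scored −0.79 in KARPAS422 and −0.33 in K562. In KARPAS422 a single PARP2 guide, s_1325, fell from 13708 to 3906 counts, a score of −2.46, and the other 3 scored −0.90 to −0.40. The same guide scored −0.40 in K562. PARP3, a mono-ADP-ribosyltransferase of double-strand break repair, was the tightest of the targets in K562. Its 4 guides spanned 0.20 there around a score of 0.15, and in KARPAS422 they scored −0.89 to −0.42 around −0.47.

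The interferon-induced or macrodomain enzymes were PARP9, PARP10, PARP12, PARP14 and PARP15. PARP9, which works with the ubiquitin ligase DTX3L, had the score closest to 0 of the 16 targets in KARPAS422, at −0.24, with guides from −0.81 to −0.17, and scored −0.13 in K562. PARP14 had the tightest guides in KARPAS422, spanning 0.43 from −0.98 to −0.55 around −0.73. Its K562 score was −0.12, with guides from −0.31 to 0.69. PARP10, a mono-ADP-ribosyltransferase, scored −0.86 in KARPAS422 and −0.28 in K562. Its KARPAS422 guides fell into pairs, s_1300 and s_1301 at −1.21 and −1.45 and s_1299 and s_1302 at −0.32 and −0.50.

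PARP12, a zinc finger protein that binds RNA, had the widest spread of guides in KARPAS422, at 2.36. Guide s_1310 scored −1.85 on 18696 day 0 counts, s_1308 and s_1309 scored −0.51 and −0.36, and s_1307 scored 0.52 on 408 day 0 counts. In K562 the guide s_1307 was instead the lowest of the 4, going from 480 to 126 counts, a score of −1.66 with a counting interval of −1.96 to −1.38. The gene score of PARP12 was −0.44 in KARPAS422 and −0.48 in K562. PARP15, a macrodomain enzyme with no guide above 0 in KARPAS422, had guide scores there of −0.76, −0.94, −1.12 and −2.47. The lowest of these, s_1318, had 622 counts on day 0 and 176 on day 14. Without s_1317 or without s_1318 the PARP15 score was −0.94, so it was below −1 only with both. In K562 s_1316 went from 113 counts to 0, while the other 3 PARP15 guides scored −0.36 to 0.61.

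The other PARPs were PARP4, PARP6, PARP8, PARP11 and PARP16. PARP6, a mono-ADP-ribosyltransferase, had the lowest score of the 16 in both lines, but its guides did not agree in K562. In KARPAS422 s_1335 went from 4721 to 3238 counts, s_1336 from 60 to 32, s_1337 from 436 to 203 and s_1338 from 13146 to 13157. The scores were −1.19, −1.54, −1.75 and −0.65, all below 0. In K562 s_1335 went from 4583 to 2814 counts and s_1338 from 16627 to 10289, scores of −0.44 and −0.42. Guide s_1337 went from 542 counts to 0 and was, at a floor of 3 counts, at least 150-fold rarer than control guides. Guide s_1336 went from 135 counts to 1, a score of −5.94 with an interval of −12.1 to −4.31. The PARP6 score of −3.19 lay between these pairs, where no guide was. Without s_1336 or without s_1337 it was −0.44, and without either of the other guides it was −5.94. Restricted to guides with at least 1000 counts on day 0, 0 of 16 targets were below −1 in K562. In KARPAS422 the PARP6 score was then −0.93, and PARG, at −1.24, was the lowest of the 16.

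Rare guides of other genes were lost in K562 as well. Of 37 guides with at least 100 and under 300 counts on day 0, 17 had 0 or 1 count on day 14, which is 45.9%. These were guides of 16 genes, 1 guide each, and 1 of the 4 control guides of that class. Of 45 guides with at least 300 and under 600 counts 3 had 0 or 1 count, or 6.67%, and of all guides with at least 600 counts there were 0. In KARPAS422, 3 of 33 and 1 of 52 guides of these classes had 0 or 1 count. All 3 member guides that were lost in K562, s_1336 and s_1337 of PARP6 and s_1316 of PARP15, came from these classes of low abundance. Of the 64 member guides, 58 had at least 1000 counts on day 0 in each line. Day 0 abundance was alike in the lines, with a Pearson correlation of 0.969 across the 2306 guides as a description, which share the library from which they were made.

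PARP8, a mono-ADP-ribosyltransferase, scored −0.76 in KARPAS422, where s_1340 went from 26154 to 8345 counts, a score of −2.30. The other 3 PARP8 guides scored −0.85 to −0.33, and in K562 s_1340 scored −0.11 within a gene score of −0.09. PARP4, found in vault particles, scored −0.44 in KARPAS422 and −0.13 in K562. Its guide s_1333 was above 0 in both lines, at 0.34 and 0.67. PARP11, known at the nuclear envelope, scored −0.55 in KARPAS422 with guides from −1.01 to 0.05. In K562 it had the highest score of the 16, at 0.28, with guides from −0.10 to 0.74. PARP16, an enzyme of the endoplasmic reticulum membrane, scored −0.53 with guides from −0.88 to −0.04 in KARPAS422 and 0.08 in K562.

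The enzymes that remove ADP-ribose were PARG, ADPRH and ADPRHL2, with scores of −1.23 to −0.67 in KARPAS422. PARG, which cuts poly-ADP-ribose chains, had all its guides below 0 in KARPAS422 and guides of both signs in K562. In KARPAS422 they went from 10234 to 6377 counts, from 1459 to 840, from 1338 to 959 and from 6675 to 6576, scores of −1.33, −1.45, −1.13 and −0.67. In K562 the same guides scored 0.13, −0.14, 0.46 and −0.07, so that all 4 were lower in KARPAS422, with differences of −1.59 to −0.60. Without any 1 guide the PARG score in KARPAS422 was −1.33 to −1.13. ADPRH, a hydrolase of ADP-ribosylated arginine, scored −0.96 in KARPAS422 with guides from −1.52 to −0.73, and −0.48 in K562 with guides from −0.91 to −0.12. ADPRHL2, which removes ADP-ribose from serine, scored −0.67 and −0.42, and its guide s_26 was at 0.08 in KARPAS422 and −0.55 in K562.

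Between the lines, 14 of 16 targets scored lower in KARPAS422 than in K562, as did 87.6% of all genes. The median difference was −0.53 over the targets and −0.58 over all genes. PARG, at −1.26, was the only target with a difference below −1, against 27.3% of all genes. For 9 of the 16 all 4 guides were lower in KARPAS422, as they were for 45.6% of the genes with 4 guides in both lines. Of the guides 53 of 64 were lower, against 78.8% of all targeting guides. PARP6 and PARP12 were the exceptions in direction, at 1.82 and 0.04. The PARP6 difference had 2 guides of each sign, from −0.76 to 7.31. The upper end came from s_1337, whose K562 score at 0 counts on day 14 is set by the pseudocount. With a pseudocount of 10 the K562 score of PARP6 was −2.06. The difference between lines hung on the centring. Centred on all guides, the median difference over the targets was −0.07, and by library totals alone it was 0.05.

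Agreement among guides was like that of the library. The median over genes of the SD among a gene's guides was 0.469 for the targets and 0.440 for all genes in KARPAS422, and 0.387 and 0.462 in K562. No target had an SD above 1 in KARPAS422, where 16% of genes did. In K562 PARP6 and PARP15 did, with SDs of 4.28 and 3.43, against 14.9% of genes. Each of them had a guide with 0 counts on day 14 there, so the size of these SDs depends on the pseudocount. All 4 guides were below 0 for 11 of 16 targets in KARPAS422 and 3 of 16 in K562, against 74.3% and 26.8% of genes with 4 guides measured. A mean over guides in place of the median put 6 targets below −1 in KARPAS422 and 2 in K562, and 202 and 63 of all 564 genes. Of the genes on a list of partners and readers of ADP-ribose, 3 were in the library. In KARPAS422 the chromatin remodeller CHD1L scored −0.40, the deacylase SIRT6 −0.48 and the mono-ADP-ribosyltransferase TIPARP −0.70. In K562 they scored −0.28, 0.10 and −0.19.

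RNA-seq of DMSO-treated cells addressed how strongly KARPAS422 expresses the targeted genes. In DMSO, 10 of 16 targets were higher in KARPAS422 than in the mean of DB, Farage and SUDHL5 and 4 were lower at an adjusted p under 0.1 by edgeR, whereas 43.9% and 37.3% of all genes were. With a fold above 1.5 the counts were 7 and 3, against 22.9% and 21.9%. All 5 interferon-induced or macrodomain enzymes were among the higher ones. In these bulk libraries a change in the share of cells and a change in RNA per cell cannot be told apart.

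PARP14 had levels of 239 and 228 CPM (gene counts scaled to a common library size) in KARPAS422, 133 and 128 in SUDHL5, 69.9 and 70.5 in Farage, and 2.25 and 1.76 in DB. The log2 difference was 3.13 ± 0.0416 (SE, adjusted p = 5.45e-17 by edgeR). The level of PARP14 in KARPAS422 was not alike in the 2 experiments. Control KARPAS422 cells of the drug combination experiment had PARP14 at 100 and 94.7 CPM and PARP15 at 26.8 and 27.7. There PARP9 had 80.0 and 64.5 CPM, PARP10 118 and 172 and PARP12 115 and 123. The MI-503 experiment was counted over 35813 genes and the drug combination experiment over 21455, and the 2 were scaled separately. The cause of the unlike levels was not tested. PARP12 had 111 and 111 CPM in KARPAS422, 16.02 and 15.9 in SUDHL5, 11.9 and 11.4 in Farage and 0 counts in both DB libraries. Against DB, with a floor of 3 counts per library, PARP12 was at least 541-fold higher in KARPAS422, and since DB is at 0 the fitted difference from the 3 lines, 6.89, depends on a prior count. PARP10 had 157 and 156 CPM in KARPAS422, 55.4 and 50.4 in Farage, 48.4 and 42.6 in SUDHL5 and 3.96 and 3.64 in DB (log2 difference 2.88 ± 0.0477, adjusted p = 5.7e-16).

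PARP9 was also highest in KARPAS422 and lowest in DB, with 78.7 and 78.2 CPM in KARPAS422, 57.8 and 59.8 in SUDHL5, 56.2 and 52.1 in Farage and 0.546 and 0.715 in DB (log2 difference 2.62 ± 0.0595, adjusted p = 1.94e-14). DB was thus low for every gene of this group. PARP15 did not have its highest level in KARPAS422, with 57.8 and 58.7 CPM there, 124 and 110 in Farage, 22.7 and 22.2 in SUDHL5 and 2.53 and 1.95 in DB. Its difference from the 3 lines was 1.67 ± 0.06 on the log2 scale (adjusted p = 3.33e-12). PARP3 was higher in KARPAS422 by 1.19 ± 0.0674 and PARP6 by 0.64 ± 0.0366. PARP6 RNA was at 70.8 and 71.3 CPM in KARPAS422.

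ADPRH, at 1.20 and 1.27 CPM in KARPAS422, was lower than the mean of the 3 lines, with a log2 difference of −2.32 ± 0.172 (adjusted p = 1.29e-08). The comparison lines were themselves far apart, with 56.6 and 55.6 CPM in Farage, 14.003 and 14.1 in DB and 0.257 and 0.418 in SUDHL5, so ADPRH was higher in KARPAS422 than in SUDHL5. PARP11 and PARP16 were the other targets lower with a fold above 1.5, at −1.32 ± 0.059 and −1.13 ± 0.0595. PARG did not pass, at 0.00 ± 0.0375 (adjusted p = 0.999).

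Of the genes of the family without a guide, TNKS, TNKS2, ADPRHL1, MACROD1 and MACROD2, 2 were higher in KARPAS422 and 2 lower. MACROD2, a hydrolase of mono-ADP-ribose, had the lowest log2 difference, −3.79. Its levels were 0.576 and 0.836 CPM in KARPAS422, 0.691 and 0.209 in SUDHL5, 10.9 and 15.2 in DB and 126 and 118 in Farage. The levels in KARPAS422 and SUDHL5 thus overlapped. Of the partners and readers 18 of 19 were tested, with 7 higher and 7 lower. Over all genes the shares were 43.9% and 37.3%. Among the partners DTX3L, which works with PARP9, was at 302 and 287 CPM in KARPAS422 and at 1.23 and 0.911 in DB. Its log2 difference from the 3 lines was 4.08 ± 0.0493 (adjusted p = 1.9e-17 by edgeR). Control KARPAS422 cells of the drug combination experiment had DTX3L at 128 and 111 CPM.

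PARP9, PARP15 and PARP14 lie in the same region of chromosome 3 (GENCODE on hg38). Other genes between them, DTX3L included, were not looked up. PARP9 spans chr3:122527924-122564577 on the minus strand, PARP15 chr3:122577628-122639047 and PARP14 chr3:122680839-122730840, both on the plus strand. PARP12 lies on chr7:140023749-140062951. Promoter windows from RefSeq (GRCh38.p14), from 250 bases before to 50 bases after a start, were found for 14 of the 16 targets, in 18 windows. They were searched on both strands for the core of the interferon-stimulated response element, which is GAAA followed by any 2 bases and GAAA again and reads TTTC, any 2 bases and TTTC on the other strand. It was found in 1 window each of PARP9, PARP12 and PARP14, and in 1255 of all 35116 windows, or 3.57%. The 50 bases before the start of these 3 windows are shown on the gene's strand, with the match in capitals, because these are the targets of the interferon-induced or macrodomain group that hold it. PARP15 held no match in its 2 windows and PARP10 had no window, although both rose with both drugs in KARPAS422, as the other 3 did. A match is a description and not a bound site.
PARP9, chr3:122564301-122564350, minus strand: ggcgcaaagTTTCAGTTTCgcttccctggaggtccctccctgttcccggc
PARP14, chr3:122680789-122680838, plus strand: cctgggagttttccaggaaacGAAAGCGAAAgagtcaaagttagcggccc
PARP12, chr7:140062952-140063001, minus strand: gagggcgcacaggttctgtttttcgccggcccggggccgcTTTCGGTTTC
The match ended 31 bases before the start in PARP9, 19 before it in PARP14 and directly at it in PARP12.

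In KARPAS422 most changes with MI-503 were small. At an adjusted p under 0.1, 4 of 16 were higher and 5 lower, against 25.5% and 26.3% of all genes, and with a fold above 1.5 ADPRH alone was higher (7.36% of all genes) and 0 were lower (2.75%). ADPRH rose from 1.20 and 1.27 CPM to 2.46 and 2.76, by 1.06 ± 0.205 on the log2 scale (adjusted p = 0.00152). PARP10 fell from 157 and 156 to 119 and 116 CPM, a log2 change of −0.42 ± 0.0315 (adjusted p = 2.41e-06). PARP16, linked to the unfolded protein response, rose by 0.43 ± 0.0666 (adjusted p = 0.000353) and PARP9 by 0.20 ± 0.0362 (adjusted p = 0.00111), while PARP12 changed by −0.18 ± 0.0338 (adjusted p = 0.00135). The number of lower targets was 3 without the first DMSO library and 2 without the second MI-503 library. Among the 5 interferon-induced or macrodomain enzymes 1 was higher and 3 were lower, with a median log2 change of −0.10. Of the family genes without a guide 1 was higher and 2 lower, and of 18 partners 7 were higher and 3 lower.

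The other lymphoma lines were compared as well after their levels had been seen, each alone. In DB, 8 of 15 tested targets were higher with MI-503 and 4 lower, against 34.5% and 34.7% of all genes. With a fold above 1.5, 4 were higher, against 16.2%, and 1 was lower, against 10.2%. The 4 were PARP9, PARP15, PARP14 and PARP10, all of the interferon-induced or macrodomain group. PARP9 rose from 0.546 and 0.715 CPM to 4.32 and 3.80, by 2.68 ± 0.259 on the log2 scale (adjusted p = 1.96e-06). PARP15 rose from 2.53 and 1.95 CPM to 13.5 and 12.3 (2.54 ± 0.149, adjusted p = 2.3e-08). PARP14 rose from 2.25 and 1.76 CPM to 5.28 and 5.05 (1.37 ± 0.185, adjusted p = 3.65e-05) and PARP10 from 3.96 and 3.64 CPM to 7.02 and 6.99 (0.89 ± 0.139, adjusted p = 0.000127).

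The raised levels of these genes in DB stayed under those of the other 3 lines. PARP12, the fifth member of the group, did not pass the filter on low counts in DB, with 0 counts in DMSO and 0.201 and 0.288 CPM with MI-503. DTX3L rose with them, from 1.23 and 0.911 CPM to 13.8 and 12.5 (3.63 ± 0.173, adjusted p = 3.83e-09). PARP1 fell in DB from 931 and 944 CPM to 559 and 577, a log2 change of −0.72 ± 0.0262 (adjusted p = 3.94e-10). The DMSO libraries of DB held 14695930 and 15474692 counts and its MI-503 libraries 52236459 and 46170498, and the part of this depth in the changes was not tested.

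In Farage, 4 of 16 targets were higher and 3 lower with MI-503, against 12.3% and 14.7% of all genes, and 0 passed a fold of 1.5, against 2.06% higher and 1.48% lower. The interferon-induced or macrodomain group had 2 higher and 1 lower of its 5 genes. PARP15 rose by 0.47 ± 0.0635 (adjusted p = 0.000894), PARP9 by 0.39 ± 0.0568 (adjusted p = 0.00143) and ADPRH by 0.27 ± 0.0496 (adjusted p = 0.00452), while ADPRHL2 changed by −0.42 ± 0.0929 (adjusted p = 0.011). The number of lower targets was 0 without the first Farage DMSO library, 1 without the second and 1 without the first MI-503 library. In SUDHL5, 9 of 15 tested targets were higher and 3 lower, against 26.3% and 28.7%, and 0 passed a fold of 1.5, against 6.71% and 7.41%. All 5 genes of the interferon-induced or macrodomain group were among the 9, with log2 changes of 0.14 to 0.39. Whether MI-503 acted on the targets differently in these lines was not tested.

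EPZ-6438, which blocks the methyltransferase EZH2, and VTP50469 were each compared with control KARPAS422 cells in 1 fit over 8 libraries, so the comparisons share control libraries. With EPZ-6438, 7 of 16 targets were higher and 2 lower, against 8.27% and 10% of all genes, and with a fold above 1.5 these were 5 and 0, against 6.85% and 2.53%. The 5 were ADPRH, PARP14, PARP11, PARP9 and PARP15. ADPRH rose from 1.01 and 0.714 CPM to 4.48 and 4.23, by 2.31 ± 0.441 on the log2 scale (adjusted p = 0.0263). PARP14 rose from 100 and 94.7 CPM to 212 and 226 (1.15 ± 0.217, adjusted p = 0.0256 by edgeR). KARPAS422 with DMSO in the MI-503 experiment had PARP14 at 239 and 228 CPM. PARP11 (0.75 ± 0.225, adjusted p = 0.0814), PARP9 (0.72 ± 0.214, adjusted p = 0.0817) and PARP15 (0.64 ± 0.186, adjusted p = 0.0768) were nearer the threshold. PARP12 rose by 0.53 ± 0.122 (adjusted p = 0.0427), and ADPRHL2 changed by −0.45 ± 0.0965 (adjusted p = 0.0346).

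These counts rested on single libraries. The number of higher targets with EPZ-6438 was 0 without the second control library, the first VTP50469 library or the second EPZ-6438 library, 1 without the first EPZ-6438 library, 2 without the second VTP50469 library and 4 without the first control library. The number of lower targets went from 2 to 0 without the second control, either VTP50469 or the second EPZ-6438 library, and to 1 without the first control library. The log2 change of PARP14 over all alternatives was 0.97 to 1.19.

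With VTP50469, 4 of 16 targets were higher and 0 lower, against 3.18% and 0.197% of all genes, and with a fold above 1.5 these were 3 and 0, against 2.38% and 0.0908%. PARP14 rose to 199 and 208 CPM (1.13 ± 0.217, adjusted p = 0.0658). PARP10 rose from 118 and 172 CPM to 271 and 254 (0.94 ± 0.162, adjusted p = 0.049). PARP12 rose from 115 and 123 CPM to 199 and 192 (0.79 ± 0.122, adjusted p = 0.0352), and PARP3 rose by 0.57 ± 0.115 (adjusted p = 0.076). All 3 of the larger changes were in the interferon-induced or macrodomain group. The count was 0 without the first control library, either VTP50469 library or the second EPZ-6438 library, and 1 without the second control or the first EPZ-6438 library. It was 6 without either library of both drugs. Of the 19 partners 3 were higher with EPZ-6438 and 0 lower, against 8.27% and 10% of all genes. With VTP50469 0 of them passed an adjusted p of 0.1, and DTX3L was at 0.67 ± 0.233 (adjusted p = 0.287 by edgeR). Of the 5 family genes without a guide 2 were higher with EPZ-6438 and 1 with VTP50469.

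With both drugs 10 of 16 targets were higher and 4 lower, against 23.5% and 25.2% of all genes, and with a fold above 1.5 they were 8 and 2, against 19.8% and 15.1%. The median log2 change was 0.60 over the targets and 0.10 over all genes. The 5 interferon-induced or macrodomain enzymes were all higher, with log2 changes of 1.15 to 2.37. PARP14 rose from 100 and 94.7 CPM to 588 and 384, by 2.37 ± 0.224 (adjusted p = 0.000627), above either drug alone in both libraries. PARP15 rose from 26.8 and 27.7 CPM to 93.7 and 67.4 (1.61 ± 0.186, adjusted p = 0.00112). PARP12 rose to 315 and 270 CPM (1.34 ± 0.123, adjusted p = 0.000597).

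PARP9 rose from 80.0 and 64.5 CPM to 184 and 130 (1.17 ± 0.215, adjusted p = 0.00647), and its partner DTX3L from 128 and 111 CPM to 402 and 257 (1.51 ± 0.236, adjusted p = 0.00344). PARP10 rose to 286 and 337 CPM (1.15 ± 0.163, adjusted p = 0.00245), where the control libraries had differed from each other, at 118 and 172 CPM. ADPRH rose from 1.01 and 0.714 CPM to 5.15 and 4.39 (2.50 ± 0.442, adjusted p = 0.00551), levels near those with EPZ-6438 alone. PARP11 (0.76 ± 0.222, adjusted p = 0.0353) and PARP4 (0.64 ± 0.152, adjusted p = 0.0173) were the other targets higher with a fold above 1.5.

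PARP1 and PARG were lower. PARP1 fell from 1468 and 1563 CPM to 805 and 719, a log2 change of −0.95 ± 0.0912 (adjusted p = 0.000658), and its levels with EPZ-6438 alone, 1181 and 1194 CPM, lay between. PARG fell from 59.2 and 55.0 CPM to 39.4 and 30.4 (−0.67 ± 0.159, adjusted p = 0.0172). PARP2 and ADPRHL2 were lower by less than 1.5-fold. PARP1, PARP2 and PARP3 did not move together, since PARP3 rose by 0.56 ± 0.115. PARG, PARP1 and PARP4 have pseudogene copies, and their levels are uncertain where the counting split or dropped reads that fit both.

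Without the second library of both drugs, which stood apart, 11 targets were higher and 4 lower. PARP14 was then at 2.64, PARP12 at 1.45, PARP9 at 1.40, PARP10 at 1.04, ADPRH at 2.63 and PARP1 at −0.86. ADPRH, PARP1, PARP9, PARP10, PARP12, PARP14 and PARP15 stayed past the threshold under all 13 alternatives. The number of lower targets was 1 without the first VTP50469 library or the second EPZ-6438 library. PARG and PARP4 were lost in both of these fits. PARP11 was lost there too, without the second control library, without the first library of both drugs and when only the 2 groups were fitted.

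Of 19 partners and readers 4 were higher with both drugs and 5 lower, against 23.5% and 25.2% of all genes. Besides DTX3L, the higher ones were APLF, GDAP2 and RNF146, and the lower ones were H2AFY, NAMPT, LIG3, XRCC1 and HPF1. XRCC1 and LIG3 act with PARP1 in single-strand break repair and HPF1 directs PARP1 to serine. H2AFY, which codes for a macrodomain histone, changed most of the lower ones, at −0.73 ± 0.111 (adjusted p = 0.0032). Of the 5 family genes without a guide MACROD2 and ADPRHL1 were higher, by 1.37 ± 0.127 and 0.91 ± 0.0859. MACROD2 was at 33.3 and 32.9 CPM in these control libraries, against 0.576 and 0.836 in KARPAS422 with DMSO in the MI-503 experiment. The cause of this gap was not tested.

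SuDHL10, the other line given both drugs, was compared after its levels had been seen. There 2 of 16 targets were higher and 1 lower, against 13.7% and 7.93% of all genes, and with a fold above 1.5 these were 2 and 0, against 11% and 0.798%. The 5 interferon-induced or macrodomain enzymes held 1 higher and 1 lower, with a median log2 change of −0.26. PARP12 rose from 6.31 and 5.42 CPM to 10.7 and 10.8 (0.85 ± 0.154, adjusted p = 0.00792). ADPRH rose from 2.08 and 1.79 CPM to 3.68 and 2.996 (0.75 ± 0.227, adjusted p = 0.0584). PARP14 fell from 71.1 and 83.7 CPM to 60.9 and 59.7 (−0.39 ± 0.12, adjusted p = 0.0623). PARP12 kept its call without each library in turn. ADPRH lost it without the second control library or either library of both drugs, where the number of higher targets was 1, and with DESeq2. PARP14 lost it without those libraries or either VTP50469 library, where the number of lower targets was 0. That number was 2 without the first or without the second EPZ-6438 library.

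The log2 change with both drugs in KARPAS422 minus that in SuDHL10 was tested over all 16 libraries. At an adjusted p under 0.1 by edgeR it was above 0 for 7 targets and below 0 for 3, PARP1, PARP2 and PARG. Since KARPAS422 was exposed for longer, line and exposure time cannot be told apart in this difference. Over all genes these shares were 10.6% and 19.9%. With a fold above 1.5 the targets numbered 5 and 2, against 9.14% and 15.1%. All 5 interferon-induced or macrodomain enzymes were among the 7. The difference was 2.68 ± 0.242 for PARP14 (adjusted p = 2.36e-05) and 2.27 ± 0.303 for PARP15 (adjusted p = 0.000293), which was at 0.765 to 1.56 CPM in the SuDHL10 libraries compared. It was 1.36 ± 0.251 for PARP9 and −0.92 ± 0.105 for PARP1 (adjusted p = 0.000112). Without the second SuDHL10 library of both drugs 4 targets were higher and 1 lower, and without the first KARPAS422 control library 1 was lower. PARP14, PARP15, PARP9, PARP10 and PARP1 stayed past the threshold under all 20 alternatives.

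Set beside the screen, the 4 targets with the lowest KARPAS422 scores had unlike changes with both drugs, which were 0.41 ± 0.114 for PARP6 (adjusted p = 0.0303), −0.67 for PARG, 1.61 for PARP15 and 2.50 for ADPRH. With 16 genes and 1 screen library for each day, this is a description without a test.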

How the data were processed

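Guide counts of 4 screen libraries and gene counts of 32 RNA-seq libraries were analysed. The authors trimmed the screen reads with cutadapt, counted guides with MAGeCK and deposited raw counts per guide. For RNA-seq the authors aligned to hg38 (HISAT2 2.1.0), assigned reads to genes (featureCounts 1.6.1) and deposited raw counts per gene. Not given in the sources used here: strand setting, gene annotation and handling of multi-mapped reads.

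Guide counts were scaled to equal totals, a pseudocount of 1 was added, guides under 30 counts on day 0 were left out (0 of 64 members), and log2 ratios were centred on the median control guide. A gene score is the median over its guides. Counting intervals are exact binomial 95% intervals, and the floor for a count of 0 is 3 counts.

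The gene counts passing filterByExpr were scaled by TMM factors. Tests were edgeR's quasi-likelihood F test (R 4.3.3, edgeR 4.0.16). The p-values were adjusted over all genes tested by the Benjamini-Hochberg method. CPM values use TMM library sizes of the whole experiment. Each SE is the log2 change divided by the square root of F. ADPRHL2 was matched to ADPRS through RefSeq synonyms. The 2 libraries of each group differed by more than counting noise, with a chi-square per gene of 1.76 to 50.3. Named are all targets of the screen and, for RNA-seq, targets past an adjusted p of 0.1 and a fold of 1.5, plus up to 4 with the smallest adjusted p. DTX3L, other partners and further targets were named after their values were seen. The scripts were tested on simulated data. Alternatives included DESeq2 (1.42.0), RLE size factors, no filter, a replicate block and leaving out each library. Members, lists and tests were chosen with earlier results of these data known, and the comparisons in SuDHL10, DB, Farage and SUDHL5 were added after seeing the data. A check of the lines against cell type markers is not reported here.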

Additional observations from a re-analysis of the deposited data

Results flagged for a closer look

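The change of 10 targets with both drugs differed between KARPAS422 and SuDHL10 in a test of the difference (edgeR, adjusted p under 0.1), given as KARPAS422 minus SuDHL10 on the log2 scale. By the study's description KARPAS422 was exposed for longer, so line and exposure time cannot be told apart. It was 2.68 for PARP14, which rose in KARPAS422 and fell in SuDHL10, 2.27 for PARP15, 1.69 for ADPRH, 1.36 for PARP9, 0.93 for PARP10, 0.42 for PARP12 and 0.35 for PARP6. It was −0.92 for PARP1, −0.68 for PARP2 and −0.45 for PARG. ADPRH, PARP12, PARP6, PARP2 and PARG were not past the threshold without the second SuDHL10 library of both drugs. Without the first KARPAS422 control library PARP2 and PARG were not past it either.

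In the screen 4 targets had gene scores of opposite sign in KARPAS422 and K562, a difference that was not tested because each line and day had 1 library. KARPAS422 minus K562 was −1.26 for PARG, −0.62 for PARP3, −0.83 for PARP11 and −0.61 for PARP16. All 4 guides of each of these genes were lower in KARPAS422, as they were for 45.6% of the genes with 4 guides in both lines. PARG had 2 of its 4 K562 guides below 0 and the other 2 above it. The opposite signs of PARP3, PARP11 and PARP16 hung on the centring. Centred on all guides, PARP3 scored 0.22 in KARPAS422 and 0.37 in K562. PARP11 then scored 0.13 and 0.49, and PARP16 0.15 and 0.30. PARG kept opposite signs, at −0.55 and 0.25.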

How the results depend on the processing

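In the screen, targets scored below −1 in KARPAS422 numbered 3, but 0 when centred on all guides or scaled by totals alone (median score −0.015 and 0.0701 against −0.70), 6 by the mean over guides and 1 at a minimum of 1000 counts on day 0, which was chosen after seeing the data. In K562 the number was 1, but 2 by the mean and 0 at that minimum. A pseudocount of 10, a minimum of 100 counts and no minimum left these counts as they were. For RNA-seq, leaving out each library gave 3 to 4 higher and 2 to 5 lower targets for MI-503 in KARPAS422, 0 to 8 and 0 to 2 for EPZ-6438, 0 to 6 and 0 to 0 for VTP50469, 7 to 11 and 1 to 4 for both drugs, 10 to 10 and 3 to 4 for the comparison of lines in DMSO, 6 to 7 and 3 to 5 for DB, 3 to 3 and 0 to 4 for Farage, 6 to 8 and 2 to 3 for SUDHL5, 1 to 2 and 0 to 2 for SuDHL10, and 4 to 10 and 1 to 3 for the difference between lines. Lower targets with MI-503 numbered 2 in KARPAS422 and 1 in Farage when all 16 libraries were fitted together, and 1 with EPZ-6438 without a filter. Higher targets in SuDHL10 numbered 1 with DESeq2. Among the RNA-seq log2 changes recomputed under these settings none reversed its sign. Those of genes outside the 16 targets, and of some targets that changed by less than 1.5-fold, were not recomputed.

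With the replicate number as a block, lower targets in SuDHL10 numbered 4 in place of 1, and 7 in place of 5 with MI-503 in KARPAS422; with both drugs in KARPAS422 they were 10 higher and 4 lower, as without it, with EPZ-6438 7 and 2, as without it, and with VTP50469 5 and 0 in place of 4 and 0. Same-numbered libraries deviated together in the KARPAS422 combination experiment (correlations of 0.650 to 0.864) and not in the MI-503 experiment (−0.02). With 2 numbers and no label that names a shared batch, whether the numbers mark a batch was not tested.

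Over all genes, VTP50469 called 447 genes, against 278 without a filter, 941 with DESeq2 and 736 with the 2 groups alone, and both drugs called 6441 against 3585 with the 2 groups alone. In both lines the guides with 0 or 1 count on day 14 had under 600 counts on day 0. The cause of these shifts was not tested.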
